A study of Mus musculus with 12 samples.

Results

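The genes described here were Cenpe, a kinetochore motor, the spindle assembly factor Hmmr, and Mki67, Top2a, Cdk1, Ccnb2 and Aurkb, 5 cell division genes that the study picked as hub genes. They were taken by gene symbol from lists of N6-methyladenosine (m6A) peaks, and are 7 of the 10030 genes that at least 1 of 6 mRNA peak lists named. The cells were C17.2, an immortalised line of mouse neural stem cells (NSCs), so every library came from 1 line. Control cells stayed in standard oxygen, and hypoxia/reoxygenation (H/R) cells, a culture model of ischemia and reperfusion, were held at 5% oxygen for 12 h and returned to standard oxygen for 48 h. The assay, MeRIP-seq, sequences RNA after immunoprecipitation: fragments pulled down by an m6A antibody are compared with unselected input RNA. The labels gave 3 immunoprecipitates and 3 inputs in each group, 12 samples in all, and the peak lists stand for 3 control and 3 H/R libraries, called A, B and C. Nothing in the labels said that the libraries of a group came from separate cultures.

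Entry into mitosis is driven by the kinase Cdk1 with a B-type cyclin such as Ccnb2. Chromosomes are then compacted and untangled with the help of the topoisomerase Top2a, are coated by Ki-67, the product of Mki67, and are fastened to the spindle under the control of the kinase Aurkb, while Hmmr helps to assemble spindle microtubules and the motor Cenpe moves chromosomes towards the metaphase plate. m6A is the most common internal mark of mRNA. It is written by a methyltransferase complex at the consensus DRACH, in which D stands for any base but C, R for A or G, and H for any base but G, and it bears on the splicing, translation and decay of the marked RNA.

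The genes and the peaks were picked from the same contrast of control and H/R libraries. For this reason their differences between the groups are given as descriptions without a test. A peak was 1 interval in a list, called by the authors for each library with MACS, immunoprecipitate against input. The lists differed in length, with 7863 to 12180 mRNA peaks in the control libraries and 13954 to 22038 in the H/R libraries. The median fold enrichment of a list, that is the ratio of immunoprecipitate to local background, ran the other way, from 21.8 to 33.9 in the control libraries and from 9.34 to 15.5 in the H/R libraries. Peak numbers that MACS had assigned reached 48684 in control A and 50003 in H/R B, against 69155 to 117271 in the other 4 libraries. Results without control A and H/R B are therefore given where they moved. The lists hold no read numbers, and the read numbers that the study reports were not used, so the depth behind a peak is unknown here. Peaks report a mark and not the level of an RNA, and more methylation and more RNA cannot be told apart from a list alone. The study also ran RNA-seq, and took its hub genes from mRNAs that differed in both m6A and expression. Among NSC markers Nes, Sox2 and Notch1 were named in all 6 mRNA lists, Msi1 and Hes1 only in H/R lists, and Pax6, Vim, Fabp7 and Prom1 in none. Of 4 microglia markers none was named, of 5 neuron markers Map2 and Syt1 were, and of 4 astrocyte markers Gfap was.

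Sequences of the called regions are shown first, since DRACH is the motif at which m6A is written. Each is the 21-base stretch around the DRACH match nearest the middle of the region, read from the mouse reference (mm10) on the transcript strand, 5′ to 3′, with the motif in capitals. A match is a description of the letters and does not place the methylated base. The first 4 sites lie in regions that all 6 lists named.

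Cenpe exon 32, chr3:135247476-135247496, plus strand: gagaatgtAAACTtgactcaa
Mki67 exon 12, chr7:135697644-135697664, minus strand: cattatggAAACAccaaagca
Top2a exon 29, chr11:98997868-98997888, minus strand: atggtgcgGAACCaggaagcc
Cdk1 exon 1, chr10:69352856-69352876, minus strand: gcagtccgGAACTgcggtgtg

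The next 6 sites lie in regions that all 3 H/R lists and no control list named. They are shown to set the letters of added regions beside those of shared ones, and every called region of the 7 genes but exon 4 of Mki67 held at least 1 match.

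Cenpe exon 15, chr3:135231385-135231405, plus strand: atgttgaaTAACActcttgag
Cenpe exon 16, chr3:135232975-135232995, plus strand: gaaaatgaAGACTtgaaattg
Cenpe exon 46, chr3:135273321-135273341, plus strand: gtccacacTGACAaagatgat
Mki67 exon 8, chr7:135704667-135704687, minus strand: tgtgagacAGACAttcccaag
Cdk1 exon 3, chr10:69346151-69346171, minus strand: agaagatcAGACTtgaaagcg
Hmmr exon 11, chr11:40714033-40714053, minus strand: ggctggttAAACAgctggaag

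Of the 7 genes, 5 had more peaks in every H/R library than in any control library, and these were Cenpe, Mki67, Cdk1, Ccnb2 and Hmmr. Over all 10030 genes the same held for 14.8%, and the reverse for 0.12%. Because the genes were chosen on this contrast, their count is printed beside the background and nothing is read from the difference. Top2a and Aurkb did not separate the groups. Together the 7 genes held 14, 14 and 8 peaks in control A to C, against 31, 30 and 38 in H/R A to C, with means of 12 ± 3.46 and 33 ± 4.36 (SD, n = 3 each). Without control A and H/R B, the difference between the means was 23.5 peaks, against 21 with all libraries.

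**Figure D1:**
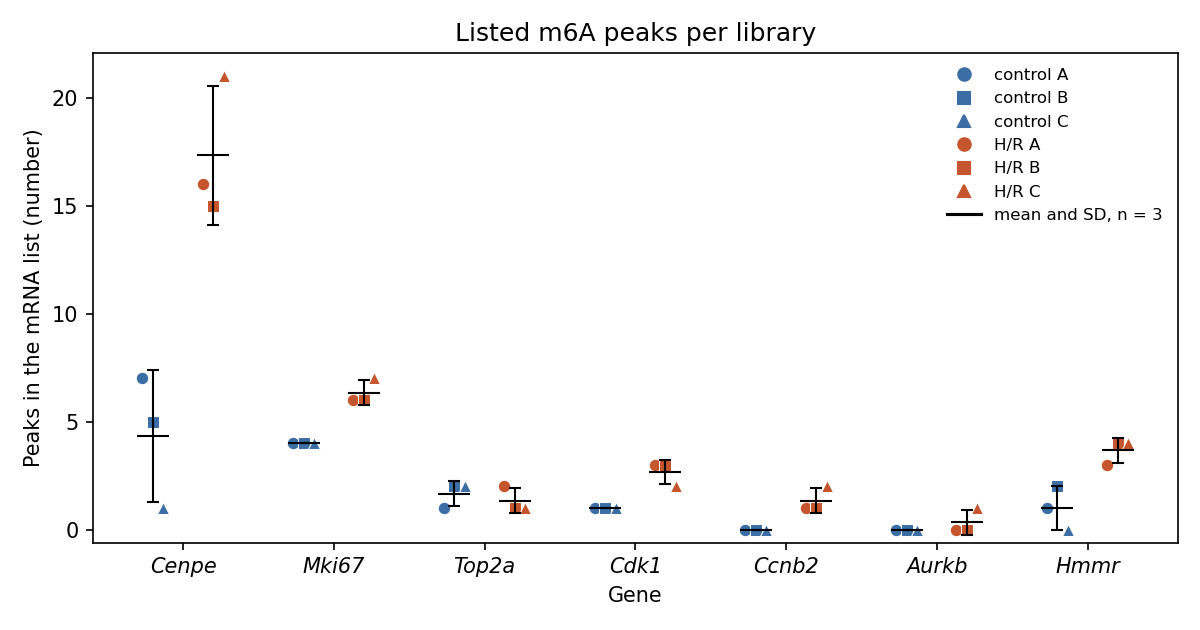
Number of peaks in the mRNA list (vertical axis) for each of the 7 genes (horizontal axis), with 1 symbol per library, control in blue and H/R in orange, and a black bar for mean and SD (n = 3). Cenpe held 1 to 7 control and 15 to 21 H/R peaks, while the groups overlapped for Top2a and Aurkb.

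Cenpe, the kinetochore motor, was listed with 7, 5 and 1 peaks in control A to C and with 16, 15 and 21 in H/R A to C. By the difference between group means, 13 peaks, it ranked 3 of 10030 genes, after Dst and Syne2, which encode very large cytoskeletal linkers. By the H/R mean of 17.3 peaks it ranked 8. The transcripts of Dst and Syne2 measure 24271 and 21718 bases and that of Cenpe 7813 bases. Per kb of transcript the H/R mean of Cenpe was 2.22 peaks, which ranked 213 of 9192 genes with a measured transcript length, beside a control mean of 0.555. Cenpe was picked on this contrast, so nothing is read from these ranks.

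Cenpe lies on the plus strand at chr3:135212563-135273540 and its transcript has 46 exons. In the control lists its peaks lay in 7 exons, all between exon 22 and exon 36, in the middle and towards the end of the coding sequence that encodes the long coiled-coil stalk of the motor. In the H/R lists peaks lay in 21 exons from exon 1 to exon 46, and all 7 of the control exons were among them. No list named a peak in exons 2 to 14. Only exon 32 was named in all 6 lists, with a fold enrichment of 43.6, 66.7 and 24.7 in control A to C and 25.0, 41.8 and 25.2 in H/R A to C. This was the only Cenpe peak of control C.

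Around exon 32 stood a block of exons named in control A, control B and all H/R lists. These were exons 22, 25, 26 and 27. Exon 26 had the highest fold of the block in every library that named it, at 41.8 and 34.8 in control A and B and 36.9, 52.4 and 33.9 in H/R A to C. Exons 35 and 36 were named in control A and in all H/R lists. For exon 36 the fold was 15.1 in control A and 7.72, 20.2 and 8.51 in H/R A to C.

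Outside exons 22 to 36, in contrast, no control list named a Cenpe peak. All 3 H/R lists named exons 15, 16 and 20 on the 5′ side and exons 37, 38, 44 and 46 on the 3′ side, which makes 7 added regions. Exon 16 stood out among them in H/R B, with a fold of 40.8, against 10.1 in H/R A and 12.8 in H/R C. The other 6 added regions had folds from 4.07 to 16.7. Exon 46 is the last exon and its 390 bases hold the stop codon and the 3′ untranslated region (UTR), and the fold was 12.3, 15.9 and 6.49 in H/R A to C.

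A further 7 Cenpe regions were named in 1 or 2 H/R lists but in none of the control lists. Exons 1 and 29 were named in H/R A and C, exon 18 in H/R B and C, and exons 39, 41, 42 and 43 in H/R C, which had the longest list. Among the study's most significant changed sites is one in Cenpe that lies between exons 39 and 41, where no list named a peak. Exon 1, with the start codon, had a fold of 3.91 in H/R A and 11.9 in H/R C. The peaks covered 21.3%, 15.9% and 3.69% of the Cenpe transcript in control A to C and 42.5%, 39.6% and 52.8% in H/R A to C. Every H/R library thus covered more of this transcript than any control library.

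**Figure D2:**
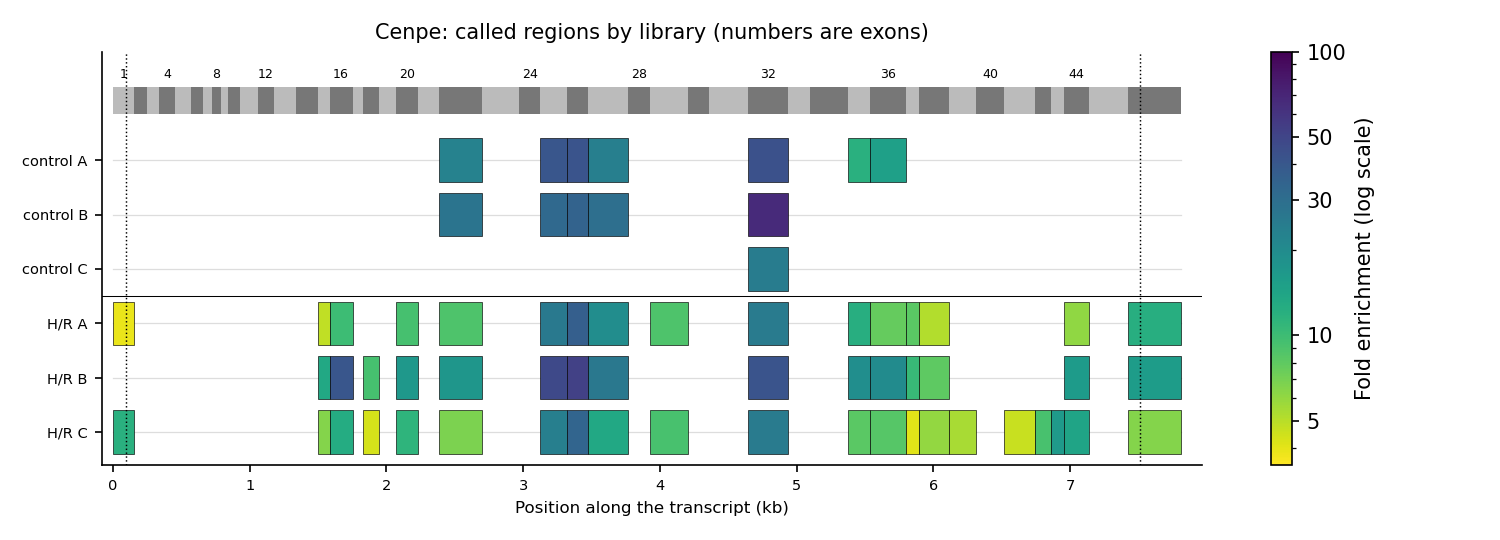
Called regions of Cenpe in each library (rows) along its transcript (horizontal axis, kb from the first base), coloured by fold enrichment on a log scale. Grey blocks are the 46 exons, some with their numbers, and dotted lines mark the first and last coding base. Control regions lie between exons 22 and 36, while those of the H/R libraries reach from exon 1 to exon 46.

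Nearly all of these intervals were exons. Of the 135 peaks of the 7 genes, 125 (92.6%) ran from the first to the last base of an exon, and each of the 135 had at least 1 end at an exon end. In the whole mRNA lists 62.7% to 75.9% of the peaks of a library matched an annotated exon in this way. The listed length of these genes' peaks is therefore largely the length of exons. Its median was 275, 290 and 311 bases in control A to C and 192, 187 and 194 bases in H/R A to C. The medians of the whole mRNA lists were likewise lower in H/R, at 501.5, 577 and 527 bases in control A to C and 296, 353 and 246 in H/R A to C. Numbers that MACS assigned along the genome also skipped some peaks between the first and the last listed Cenpe peak. There were 1 and 1 such unlisted peaks in control A and B and 7, 8 and 4 in H/R A to C, and none of them stood in the lncRNA list.

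Cdk1, the kinase that drives entry into mitosis, held 1 peak in each control list and 3, 3 and 2 in H/R A to C. Its transcript is read from the minus strand at chr10:69335146-69352912. The shared peak covered exon 1, in the 5′ UTR, with a fold of 23.7, 93.0 and 66.1 in control A to C and 31.4, 56.5 and 20.1 in H/R A to C. The groups overlapped in this fold. Merged over the lists, this region was chr10:69352836-69352938, with 77 of its 103 bases on exon 1, and it reached upstream of the RefSeq start. The peaks that were added followed directly downstream. Exon 2 was named in H/R A and B, with folds of 4.59 and 6.72, and exon 3 in all H/R lists, with folds of 7.12, 8.82 and 8.01. No list named a peak in exons 4 to 8, which include the long 3′ UTR.

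Ccnb2, a B-type cyclin and partner of Cdk1, had no peak in any control list and 1, 1 and 2 in H/R A to C. Its peaks too lay at the start of the transcript. Exon 1 was named in H/R B and C, with folds of 7.14 and 8.20, and exon 2 in H/R A and C, with folds of 4.70 and 11.1. Since neither exon was named in all 3 H/R lists, the gene was named in every H/R list without a region in common to them.

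Mki67, whose product Ki-67 coats mitotic chromosomes, held 4 peaks in each control list and 6, 6 and 7 in H/R A to C. The same 4 regions were named in all 6 lists, namely exons 6, 12, 13 and 14 of the 14 exons at chr7:135689788-135716379 on the minus strand. Exon 12, which encodes the tandem repeats of Ki-67, was listed as a single peak of 6836 bases with 258 DRACH matches. Its fold was 41.9, 48.8 and 26.2 in control A to C and 14.2, 31.0 and 16.1 in H/R A to C. Exon 6 had folds of 24.5, 38.8 and 33.3 and of 14.3, 19.6 and 21.3 in the same order, so that every H/R value was below every control value.

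In Mki67 only exon 8 was named in each H/R list but no control list, with folds of 5.04, 9.08 and 6.73. Exon 4 was named in H/R A and C, exon 11 in H/R B and exon 1 in H/R C, with folds from 3.83 to 6.56. All of these are shorter than the shared exons 6, 12, 13 and 14. As a result, coverage of the transcript moved little, from 84.8% to 85.0% in the control libraries and from 88.1% to 91.3% in the H/R libraries.

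Repeated copies of the same letters fill exon 12 of Mki67, which is why they are printed here. Of its DRACH matches with 4 bases on either side, each of the following 13-base sequences occurs 6 times in the exon.

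first repeated site of Mki67 exon 12: atggAAACTccaa
second repeated site of Mki67 exon 12: ccaaGAACTcttc
another repeated site of Mki67 exon 12: gcagAAACTggat
last repeated site of Mki67 exon 12: tagaAGACCtgga

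The most frequent motif of the exon was AAACA, 36 of 258 matches or 14.0%. In the called regions of Cenpe it was AAACT, 14 of 121 matches or 11.6%, and AAACA made up 4.96%.

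Top2a, the topoisomerase that untangles sister chromatids, held 1, 2 and 2 peaks in control A to C and 2, 1 and 1 in H/R A to C. Exon 29 of its 36 exons, at chr11:98997829-98997919, was named in all 6 lists, with a fold of 23.0, 31.0 and 33.0 in control A to C and 15.7, 24.8 and 20.0 in H/R A to C. Exon 28, at chr11:98999162-98999347, was named in the mRNA lists of control B and C alone, with folds of 80.2 and 65.0. Read by the mRNA lists only, this would be a peak that H/R lacked. In control A and all 3 H/R libraries, however, the same exon stood in the circular RNA list, with folds of 56.1, 32.5, 52.5 and 36.4 in control A and H/R A to C. There it carried the number of a MACS peak that had been filed in the long noncoding RNA (lncRNA) list at exon 26. The fold is then that of the whole MACS peak. With these lists considered, exon 28 was called in all 6 libraries. The lncRNA lists named exon 26 in all 6 libraries, on a noncoding Top2a transcript, with folds of 56.1, 21.9 and 23.7 in control A to C and 32.5, 52.5 and 36.4 in H/R A to C.

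Aurkb, the kinase of the chromosomal passenger complex, had a single mRNA peak in any library, at exon 1 in H/R C, with a fold of 6.12. Its lncRNA-list peak was found more often. This peak lay on a noncoding transcript of the locus at chr11:69047785-69048296, over exon 4, and was listed in control A with a fold of 13.7 and in H/R A to C with folds of 6.84, 14.5 and 17.4. With the mRNA and lncRNA lists added up, Aurkb held 1, 0 and 0 peaks in control A to C and 1, 1 and 2 in H/R A to C, which still overlapped. In these combined lists the same 5 of the 7 genes had every H/R count above every control count, beside 14.5% of 11902 genes.

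Hmmr, a spindle assembly factor, held 1, 2 and 0 peaks in control A to C and 3, 4 and 4 in H/R A to C. Its peaks lay in exons 7 to 14 of 18, at chr11:40701388-40733437 on the minus strand, and no list named the long last exon. Exon 14 was named in control A and B, with folds of 24.2 and 42.6, and in H/R A to C, with folds of 14.2, 38.0 and 17.6. Exon 12 was named in control B, with a fold of 25.7, and in all H/R lists, with folds of 9.80, 16.0 and 15.2. Exon 11 was the region added in all H/R lists, with folds of 6.91, 9.33 and 9.28. A peak at exon 7 was named in H/R B and C with folds of 9.33 and 18.6. Hmmr also had an lncRNA-list peak over exon 4 in the H/R libraries and in no control library, with folds of 7.45, 13.0 and 5.62. Among the study's most significant changed sites is also one in Hmmr, which lies in none of these intervals.

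**Figure D3:**
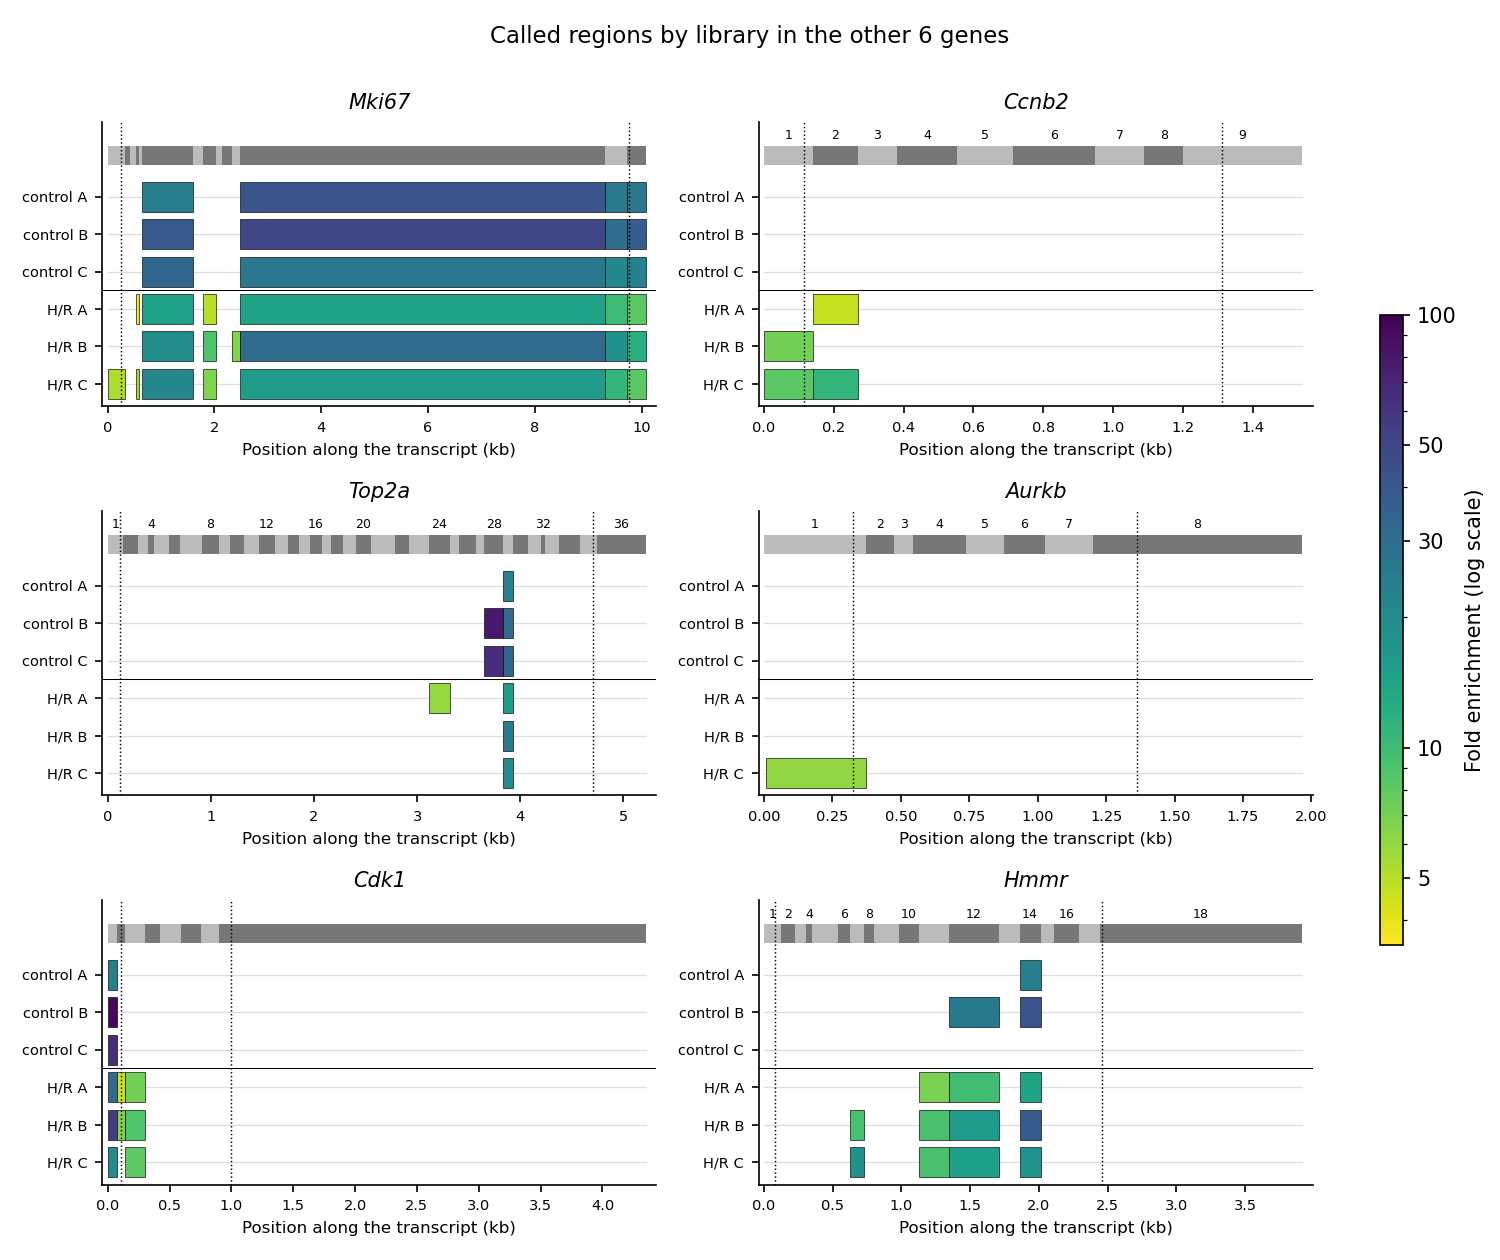
Called regions in each library (rows) along the transcripts of the other 6 genes (horizontal axes, kb from the first base, each on its own scale), coloured by fold enrichment on a log scale. Grey blocks are exons and dotted lines mark the first and last coding base. The regions of Mki67 cover most of its transcript in all 6 libraries, while those of Cdk1, Ccnb2 and Aurkb lie at the 5′ end.

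Merged over the 6 lists, the peaks of the 7 genes formed 42 regions. All 6 lists named 7 of them (16.7%), all 3 H/R lists and no control list named 10 (23.8%), and no region was named in each control list but no H/R list. For merged regions of all genes, 21.9%, 6.21% and 0.059% of 27132 fell in these classes. By gene, 4.96% of all genes were named in the H/R lists alone, in all 3 of them, as was Ccnb2, and 0.0698% in the control lists alone, as was none of the 7. Without control C, 12 regions were named in all the other lists, and without control A and H/R B, 16 were named in the H/R lists alone. The remaining 25 regions were named in part of a group, and 26 of the 42 (61.9%) held no control peak in any library, as did 50.5% of the merged regions of all genes. Counted by peak, 45 of the 99 H/R peaks overlapped a control peak of the same gene and 54 did not, while over all genes 37% of 54698 H/R peaks overlapped none. Nothing is read from these shares, since the genes were chosen on this contrast. Every region that the control mRNA lists named, apart from exon 28 of Top2a, was named in all 3 H/R mRNA lists.

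The median fold enrichment of the shared regions was lower in each H/R library than in any control library, as was that of the whole lists, although the groups overlapped for exon 32 of Cenpe, exon 12 of Mki67, exon 29 of Top2a and exon 1 of Cdk1. For the 7 regions of all 6 lists the median fold was 25.3, 38.8 and 26.2 in control A to C and 14.3, 24.8 and 20.0 in H/R A to C. Divided by the median fold of its own list, it came to 1.16, 1.15 and 0.935 in the control libraries and 1.53, 1.60 and 1.99 in the H/R libraries. The direction of the difference between the medians thus changed with this scaling. Taken singly, exon 32 of Cenpe, exon 6 of Mki67 and exon 29 of Top2a had every scaled H/R fold above every scaled control fold, and the groups overlapped for the other 4 regions. Exon 14 of Mki67 remained lower on average after scaling, at 0.821 ± 0.0541 in the H/R and 1.05 ± 0.202 in the control libraries (SD, n = 3 each). The score that MACS gave for the p value of a peak was higher in every H/R library than in any control library for exon 32 of Cenpe, exon 6 of Mki67, exon 29 of Top2a and exon 1 of Cdk1. In the deposited scores, values of 3100 recur, and 3100 or more was reached by 1, 1 and 0 of the genes' peaks in control A to C and by 5 in each H/R library.

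Added regions had lower median folds than shared ones in the same library. Shared regions had to be named in every control list and added ones in none, so part of this difference may be fixed by how the classes were made. The 10 regions of the H/R lists alone had median folds of 7.02, 11.9 and 7.37 in H/R A to C, which is 0.751, 0.767 and 0.733 of the median of the list. The highest of these was exon 16 of Cenpe in H/R B and the lowest exon 37 of Cenpe in H/R C, at 4.07. None of the 135 peaks had a deposited false discovery rate of 5% or less, and the lowest rate among them was 25.0%. In the whole mRNA lists such rates were also rare, with 0 to 7 peaks per library.

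**Figure D4:**
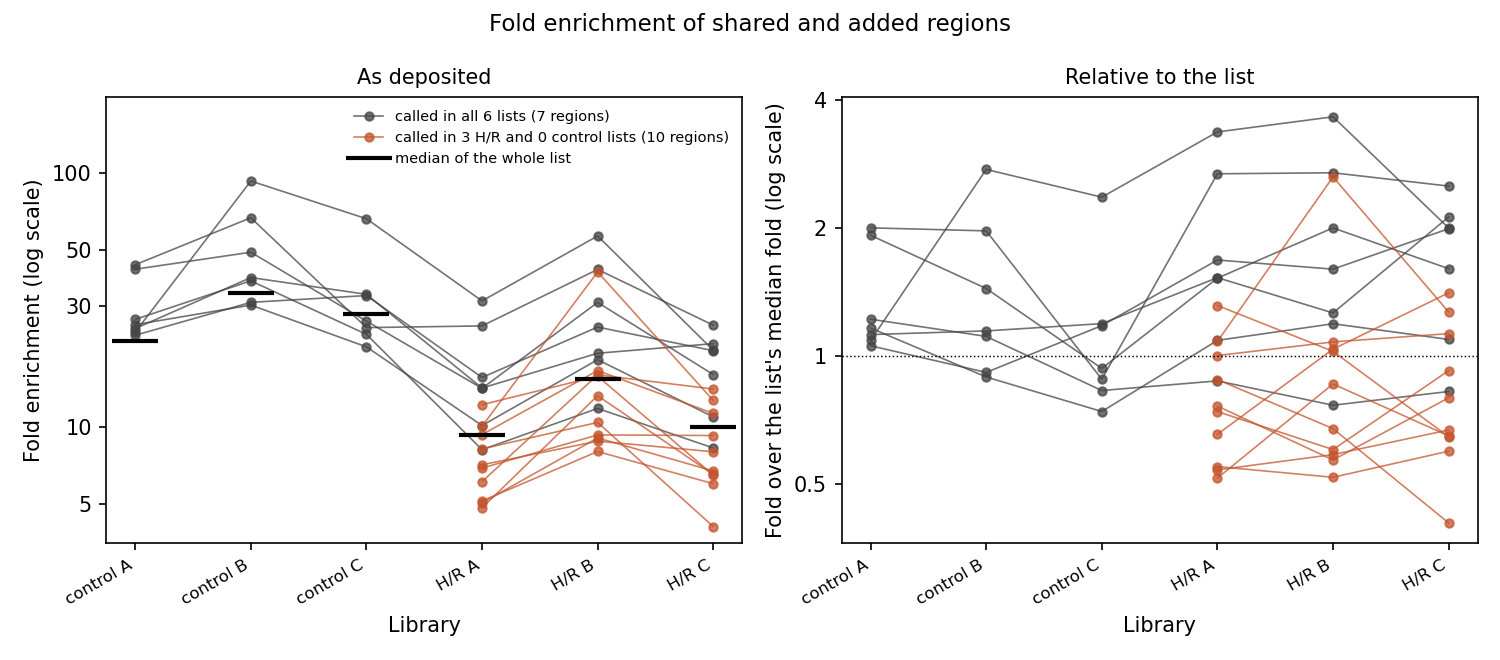
Fold enrichment (log scales) of the 7 regions named in all 6 lists (grey) and the 10 regions named in the H/R lists alone (orange), by library, as deposited on the left and divided by the median fold of the list on the right, with lines joining the values of 1 region. Black bars are the medians of the whole lists, and the medians of the shared regions relative to the list were 0.935 to 1.16 in the control and 1.53 to 1.99 in the H/R libraries.

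The part that list length plays was described by counting in other ways. Per 1000 listed mRNA peaks, Cenpe held 0.575, 0.560 and 0.127 peaks in control A to C and 0.855, 1.07 and 0.953 in H/R A to C, and the groups remained apart. The other 6 genes held 0.575, 1.01 and 0.890 and then 0.802, 1.07 and 0.771 per 1000, and their groups overlapped. When each list was held to the 7863 peaks of highest score, Cenpe held 5, 4 and 1 peaks in control A to C and 5, 10 and 5 in H/R A to C. The other 6 genes held 7, 8 and 7 in the control and 7, 8 and 7 in the H/R libraries. At this length Hmmr alone kept every H/R count, 2, 2 and 3, above every control count, 1, 1 and 0, as did 2.51% of 6444 genes, with 2.22% the reverse. Among peaks with a fold of at least 10, Cenpe held 7, 5 and 1 in the control and 7, 13 and 9 in the H/R libraries, and no gene of the 7 had groups apart. This minimum removed no control peak of the 7 genes, whose lowest fold was 11.9, and left 13, 21 and 18 peaks in H/R A to C. Because folds were lower throughout the H/R lists, the minimum falls on 1 group and cannot decide whether the groups differ. The share over all genes was not counted for it.

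**Figure D5:**
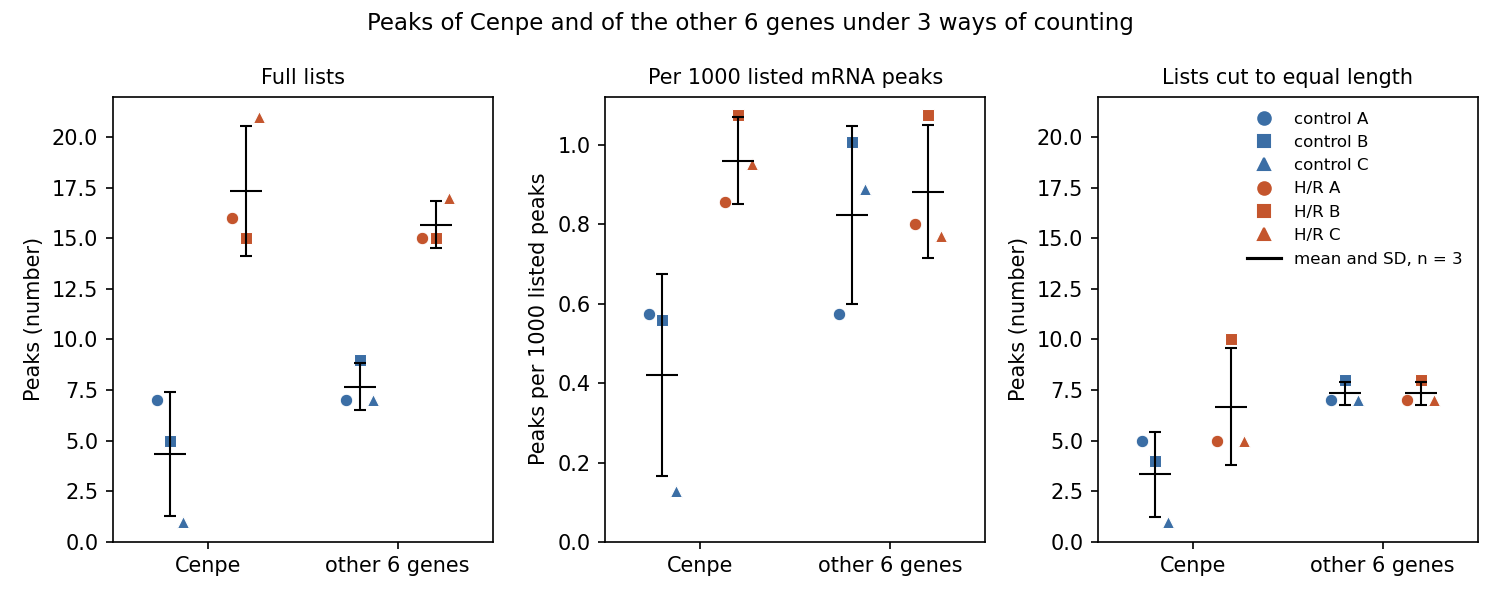
Peaks of Cenpe and of the other 6 genes together in each library, in full lists, per 1000 listed mRNA peaks and in lists of equal length (vertical axes, from 0), with symbols for libraries and black bars for mean and SD (n = 3). In lists of equal length the other 6 genes held 7, 8 and 7 peaks in both groups.

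Along the transcripts, most peak centres of the 7 genes lay in coding sequence, 82.1% ± 6.19 for control and 81.0% ± 2.21 for H/R libraries (SD, n = 3 each). The window of 100 bases on either side of the start codon held 8.93% ± 3.09 and 12.0% ± 1.75 (SD, n = 3 each), with overlapping libraries. No centre lay in the like window of the stop codon in any library, but most peaks are whole exons, so a centre is mostly an exon's middle. Counted by covered bases, this window held 1.99% ± 0.170 for control and 2.78% ± 0.177 for H/R libraries (SD, n = 3 each). Coding sequence held 95.3% ± 0.323 and 90.0% ± 2.73 of the covered bases, with every H/R library below every control library. The 3′ UTR held 1 centre in each control library, at Mki67 exon 14, and 2 in each H/R library, at Mki67 exon 14 and Cenpe exon 46. Peaks covered 30.2%, 30.6% and 26.3% of the bases of the 7 transcripts in control A to C and 39.1%, 38.5% and 43.4% in H/R A to C.

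DRACH matches were denser inside than outside the peaks, with 34.6 ± 0.65 against 24.9 ± 0.22 per kb for control and 32.1 ± 0.898 against 24.8 ± 0.313 per kb for H/R libraries (SD, n = 3 each). Exon 12 of Mki67 holds 37.7 per kb. In the regions of any list, the 7 genes had 30.8 matches per kb and 25.2 outside them, but without Mki67 the values were 25.6 and 24.9. For Cenpe they were 29.1 inside and 28.2 outside, and for Hmmr 21.5 and 24.4. These values are for regions merged over all lists. Densities per library without Mki67 were not worked out, so how far the excess in single libraries rests on Mki67 was not tested.

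The promoters of the genes, 250 bases before to 50 after the start site in RefSeq on the same build, were searched for 2 elements of cell cycle genes on both strands. The promoter table held 6 of the 7, with Aurkb missing. The letters TTTGAA of the cell cycle genes homology region, through which such genes are kept silent outside G2 and mitosis, were found in 5 of the 6 and in 17.9% of 32851 promoters. The letters CCAAT, bound by the factor NF-Y, were found in 6 of the 6 and in 37.4% of promoters. No TTTGAA match overlapped a CCAAT match in the promoters of these genes. The TTTGAA sites nearest the start of Cdk1 and Ccnb2, whose peaks lay at the 5′ end, and of Mki67 are printed with the motif in capitals.

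Cdk1 promoter, chr10:69352914-69352935, minus strand: gcggcgagTTTGAAactgctgg
Ccnb2 promoter, chr9:70421537-70421558, minus strand: gcgcggtaTTTGAAtcgcggac
Mki67 promoter, chr7:135716464-135716485, minus strand: cgttttggTTTGAAtcgggcgg

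Counted from the start site, the motif begins at base -15 in Cdk1, 4 in Ccnb2 and -98 in Mki67. Cenpe held CCAAT but not TTTGAA in this window.

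Other genes of the same processes were counted by lists, beside the 14.8% of all genes in which every H/R count was above every control count. None of the listed genes had the reverse. The lists of processes held 29 genes with every H/R count above in the full peak lists, but 6 in peak lists of equal length and 7 among peaks with a fold of at least 10. Over all genes the share in peak lists of equal length was 2.51% of 6444, and that among peaks with such a fold was not counted. How many listed genes had a peak at equal length was not counted either, so the 6 is not set against this share. In the kinetochore and checkpoint list, 16 of 22 genes had a peak in at least 1 library and 9 of these had every H/R count above. Cenpf, a large kinetochore protein, held 9, 5 and 2 peaks in control A to C and 13, 13 and 14 in H/R A to C. Ndc80, which holds microtubules at the kinetochore, held 0, 1 and 0 and then 8, 9 and 7, and the checkpoint protein Mad1l1 held 5, 3 and 1 and then 8, 6 and 12.

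In the list of the chromosomal passenger complex and central spindle, 10 of 12 genes had a peak and 5 had every H/R count above. Cit, the citron kinase of the midbody, held 1, 0 and 0 peaks in control A to C and 9, 9 and 15 in H/R A to C. Anln, which links actin and septins in the cleavage furrow, held 0, 1 and 0 and then 3, 3 and 5, and Cep55, which recruits the machinery of abscission, held 1, 0 and 0 and then 3, 3 and 4. Of the spindle assembly list, all 14 genes had a peak and 7 had every H/R count above. Tpx2, an activator of Aurora A, held 2, 0 and 0 and then 5, 9 and 5 peaks. Cd44, a hyaluronan receptor listed for its link to Hmmr, held 3, 1 and 1 and then 6, 6 and 5, and Tacc3, which stabilises spindle fibres, held none in the control lists and 3, 2 and 4 in the H/R lists.

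For mitotic chromosome structure, 13 of 15 genes had a peak and 5 had every H/R count above. The condensin subunit Smc2 held 8, 5 and 3 peaks in control A to C and 9, 11 and 12 in H/R A to C. The chromokinesin Kif4 held none and then 4, 3 and 3, and Top2b, the paralog of Top2a, 2, 0 and 0 and then 4, 3 and 4. The cyclin B and Cdk1 switch had the lowest count, with 12 of 18 genes with a peak and 3 of them above, namely Ccnf, with 2 peaks in each H/R list, and Cdc25a and Wee1, the phosphatase and the kinase that switch Cdk1 on and off, with 1, 1 and 3 and with 3, 1 and 1. None of these 3 had a control peak. Of the hub genes of the study, Rrm2 and Ccna2 were named in no mRNA list. The study called its differential sites with another program, diffReps, so absence from these lists is not absence from its joint analysis. The hub genes were picked by the study on these or companion samples, so they are not independent evidence of a direction.

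The median difference in peak count over all genes was 0.667, and it was 1.17 to 2.33 in the 5 lists of processes. Among the 368 genes with at least 30 peaks over the 6 lists 49.7% had every H/R count above every control count, but a gene could pass this minimum through its H/R peaks, so the share is given as a description only. The genes whose counts over the 6 libraries were most like the summed count of the 7 genes, among those 368, were Ap1ar (Pearson r = 0.998), Rad21 (0.998), Sptbn1 (0.992), Cep350 (0.986) and Stk10 (0.985). Rad21 is a cohesin subunit and Cep350 a centrosome protein. The median r of such genes was 0.850, and that of the summed count with the length of the lists was 0.936. These correlations rest on 6 points in 2 groups that share the length of the lists.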

How the data were processed

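MeRIP-seq peak lists of 3 control and 3 H/R libraries were used. The submitters' processing notes name cutadapt (version 1.9.3) for trimming, HISAT2 (version 2.0.4) for alignment and the build mm10. By the study's methods, peaks were called per library with MACS, whose version is not given in the sources used here, and annotated to exons with a program of the authors. No libraries were pooled. The deposited p score is 10 times the -log10 of the p of a peak, the deposited fold enrichment is a ratio to the local background, and the false discovery rate was deposited as a percent.

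Peaks were matched by gene symbol. Overlap of peaks with the exons of a gene gave the same numbers as its symbol. Peaks overlapping by at least 1 base were merged into regions. Positions were taken on RefSeq transcripts of the same build (python 3.11.15, pandas 2.3.3, pysam 0.24.0). The peak at Hmmr exon 7 follows another transcript model, with 101 of its 521 bases on exon 7. The counting was tested on simulated lists. The members and lists were chosen with earlier results of these data known. Named genes were the 7 genes, up to 3 genes per list by the largest difference among those with groups apart, and the 5 genes of highest correlation with the members among those with at least 30 peaks. Alternatives were a p score minimum of 100, a fold minimum of 10, lists of equal length by p score, merging of peaks under 100 bases apart, an overlap of 50%, lncRNA lists added, and leaving out libraries. No test was run on the members. The result of 1 marker list is not reported here.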

Additional observations from a re-analysis of the deposited data

How the results depend on the processing

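Of 146 values under alternatives, 126 stayed within the spread between libraries or within 1.5 times the main count, 20 moved and none reversed. Among peaks of 10-fold enrichment or more, the difference in summed peaks (21 with full lists) was 5.33, genes with groups apart (5) were 0, regions of the H/R lists alone (10) were 1, the difference in covered bases (11.3 percentage points) was 2.47, DRACH per kb inside minus outside H/R peaks (7.29) was 9.52 and listed process genes with groups apart (29) were 7. With lists of equal length the same values were 3.33, 1, 1, 2.08, 9.45 and 6, the difference in median length (-101 bases) was -14.0 and that in median fold (-18.5) was -12.0. With the lncRNA lists added the difference in median length was -76.0. The minimum of 10-fold removed H/R peaks of the 7 genes and no control peak of them, so part of its moves was fixed beforehand.

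Leaving out libraries, the differences ranged from 18.5 to 23.5 in summed peaks, 9.75 to 12.8 in covered percentage points, -109 to -91.3 bases in median length, -23.8 to -15.4 in median fold, and, for DRACH per kb inside minus outside, 6.89 to 7.99 in H/R and 9.49 to 10.1 in control peaks. Genes with groups apart stayed at 5, and listed process genes with groups apart ranged from 29 to 45, while 0 had the reverse throughout. The 45 was found without control A and H/R B together. Leaving out a library can only keep or raise a count of genes with groups apart, so nothing is read from counts that did not fall. Counts of regions by the lists that named them behave alike, and such values are among those that stayed. The share over all genes is not given for fewer libraries. Regions of all lists ranged from 7 to 12 (12 without control C), regions of the H/R lists alone from 10 to 16 (16 without control A and H/R B together, an alternative chosen after seeing the data, as were the lncRNA lists) and regions of the control lists alone from 0 to 1. That 1 region, without control A and also without control A and H/R B together, was exon 28 of Top2a, which the circular RNA lists show as called in the H/R libraries too. No paired analysis was possible because the letters of the peak lists match no replicate number in the sample titles and no result comes from a test. Depth was not taken into account: the lists hold no read numbers, and the read numbers that the study reports were not used.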
